A study of Rattus norvegicus with 4 samples.

Results

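The genes described here are 10 secreted or membrane-bound matrix proteases and their inhibitors, the matrix metalloproteinases Mmp2, Mmp8, Mmp9, Mmp12, Mmp13, Mmp14 and Mmp19 and the tissue inhibitors Timp1, Timp2 and Timp3, measured in the rat alveolar macrophage line NR8383. They were chosen by name, by matching the accession of each array probe to its rat symbol, and all 10 of the 10 listed genes were found, with 12 probes, among 16506 named genes measured. The line comes from cells washed out of the lung of a normal rat. All 4 arrays belonged to a single group of 4 biological replicates: after 20 passages, cells grown in DMEM with 15% serum were seeded for 48 h and then held for 4 h in DMEM with 10% fetal bovine serum. The labels add the letters ALI, which they do not spell out. A single group allows no contrast between treatments, and 1 cell line in culture stands for the cell type.

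Matrix metalloproteinases are zinc enzymes that cut proteins of the extracellular matrix and of the cell surface. They are made as inactive precursors whose propeptide must be removed, and the tissue inhibitors block the active enzymes by binding in the catalytic cleft. In the lung, alveolar macrophages are a known source of the elastin-degrading enzyme Mmp12 and of the gelatinase Mmp9.

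The arrays differed in brightness. The 75th percentile of signal over rat probes in the scanner's linear units was 83.4, 112, 126 and 167 on replicates 1 to 4. A level below is the log2 signal minus that of the array's own 75th percentile, so 0 is the 75th percentile. A gene was called detected where most spots of a probe were well above background, by the scanner software's flag, on each of the 4 arrays. Levels of different probes cannot be set against each other. All 8 macrophage markers examined were detected, among them Cd68, Spi1 and Csf1r. Detected markers of other cells were 2 of 9 for fibroblasts and smooth muscle (Col1a2 and Dcn), 1 of 6 for neutrophils (Camp) and 0 of 6 for epithelium.

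NR8383 cells expressed 3 of the 7 metalloproteinases and 1 of the 3 inhibitors at levels the arrays detected on every replicate. These were the elastase Mmp12, the gelatinase Mmp9, the basement membrane protease Mmp19 and the inhibitor Timp2. That is 4 of 10 genes, beside 53.1% of all named genes, and 3 without Mmp9, whose spot lay in the margin of a dim area on replicate 4. Another 3 genes, Mmp2, Mmp14 and Timp1, were well above background on some arrays, and the collagenases Mmp8 and Mmp13 and the inhibitor Timp3 on none, where 34.4% of all named genes were on none.

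**Figure D1:**
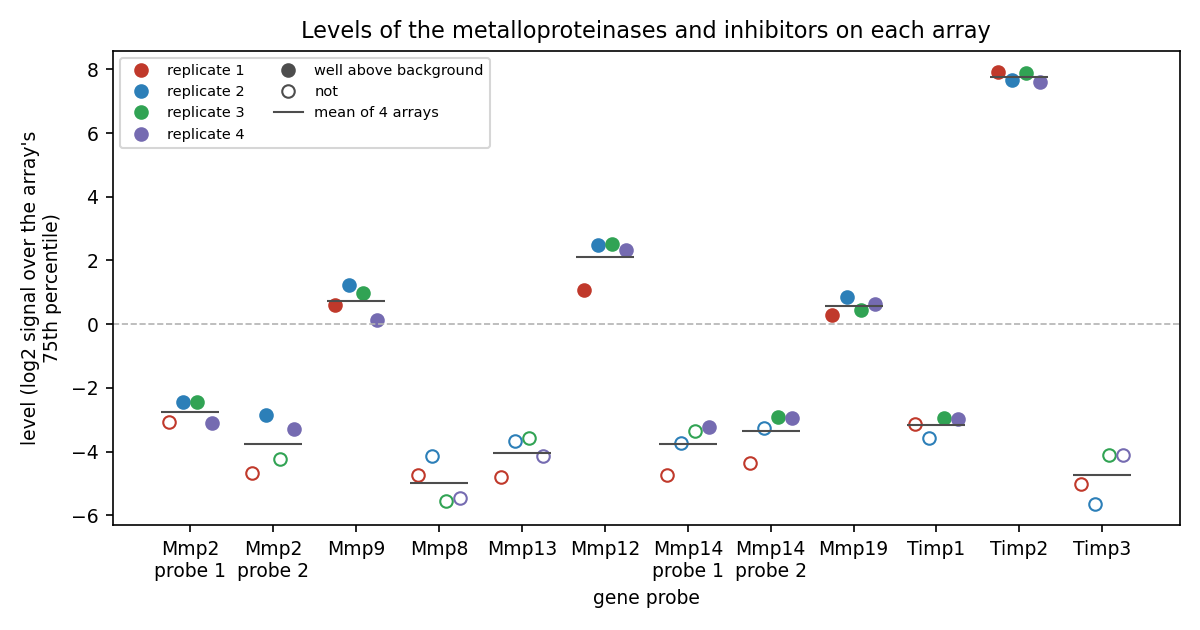
Level of each probe on each array (y axis: log2 signal over the array's 75th percentile, dashed line at 0), 12 probes of 10 genes in the order of their roles, with filled points for arrays on which most of the probe's spots were well above background and bars for the mean of the 4 arrays. Mmp9, Mmp12, Mmp19 and Timp2 are filled on all 4 arrays, and Mmp8, Mmp13 and Timp3 on none. Heights of different probes are not comparable.

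Mmp12, macrophage elastase, was the detected gene of the 10 whose level differed most between replicates. Its levels were 1.09, 2.50, 2.50 and 2.33 on replicates 1 to 4, with a mean of 2.10 ± 0.68 (SD, n = 4). Replicate 1 thus stood apart from the other arrays, which lay within a narrow span. The difference of replicate 1 from the mean of the others was -1.35, a 2.56-fold lower signal, and it was below that of all but 0.73% of the 8772 detected genes. Without replicate 1 the level was 2.44 ± 0.10 (SD, n = 3), and the rank of the SD among detected genes went from percentile 96.4 to percentile 29.5. Of the 4 detected members, Mmp12 alone had an array that stood apart by Dixon's ratio (the gap to the nearest value over the whole range, above its 95% critical value), which 8.41% of all detected genes did. Under normexp background correction the difference of replicate 1 was smaller, at -0.82. One array against 3 has no replicate error of its own, so this difference has no test. Mmp12 was printed once per array. Around its spot, 17 neighbouring detected probes showed a median difference of 0.015 on replicate 1. In bulk RNA, fewer cells expressing a gene and less of its RNA per cell cannot be told apart.

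Other genes showed the same pattern over the arrays as Mmp12. The 3 detected genes with the smallest root mean square difference from it, taken over the deviations from each gene's 4-array mean, were Tmem120b, Sgk1 and Ifrd1. Tmem120b lay 0.023 from Mmp12 by this measure. Sgk1, a kinase induced by glucocorticoids and serum, lay 0.054 from it with levels of 2.25 on replicate 1 and from 3.63 to 3.74 elsewhere. Ifrd1 lay 0.062 from it. In all, 20 of 8771 genes lay within 0.1 of Mmp12. No such count was made for other genes. The likeness covers 4 arrays of 1 condition. All 3 named genes were lowest on replicate 1, which follows from picking them for their likeness to Mmp12.

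Mmp9, gelatinase B, which cuts denatured collagen and basement membrane collagen, varied between arrays in another way. Its levels were 0.60, 1.22, 0.97 and 0.14 on replicates 1 to 4, with a mean of 0.73 ± 0.47 (SD, n = 4). Here replicate 4 was lowest and replicate 1 next. Its difference from the mean of the others on replicate 4 was -0.79 (percentile 2.84 of detected genes), against -0.18 on replicate 1 and 0.65 on replicate 2 (percentile 97.4). Its SD exceeded that of 87.7% of detected genes, and without replicate 1 that of 97.4%. Mmp9 was also printed once, and its spot lay 10 columns outside an area of the array surface in which 77 detected probes were more than 2 log2 units dimmer on replicate 4. The 19 detected probes around the Mmp9 spot had a median difference of -0.042 on replicate 4. The spot fell within the margin of that area, and with area and margin left out Mmp9 had no value.

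Mmp19, a protease of basement membrane proteins, was steadier. Replicates 1 to 4 gave levels of 0.30, 0.86, 0.45 and 0.65, with a mean of 0.56 ± 0.24 (SD, n = 4). Its SD lay at percentile 51.3 of detected genes, so its replicates spread about as widely as those of a typical gene. Replicate 1 was lowest for Mmp12 and Mmp19, which makes 2 of the 4 detected members, beside 32.8% of all detected genes.

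Timp2, an inhibitor that also takes part in the activation of pro-Mmp2 by Mmp14 at the cell surface, had the closest agreement between replicates of the 4. Its levels were 7.91, 7.66, 7.87 and 7.60 on replicates 1 to 4, a mean of 7.76 ± 0.15 (SD, n = 4), and its SD lay at percentile 26.2 of detected genes. Replicate 1 was highest and replicate 4 lowest. Its probe was printed 10 times per array, and the SD between these spots was between 0.046 and 0.077 on an array, so the spread between arrays was wider than that between spots. Negative controls are probes with no target in the sample, and the Timp2 signal exceeded their 95th percentile by factors of 6150 to 9275.

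**Figure D2:**
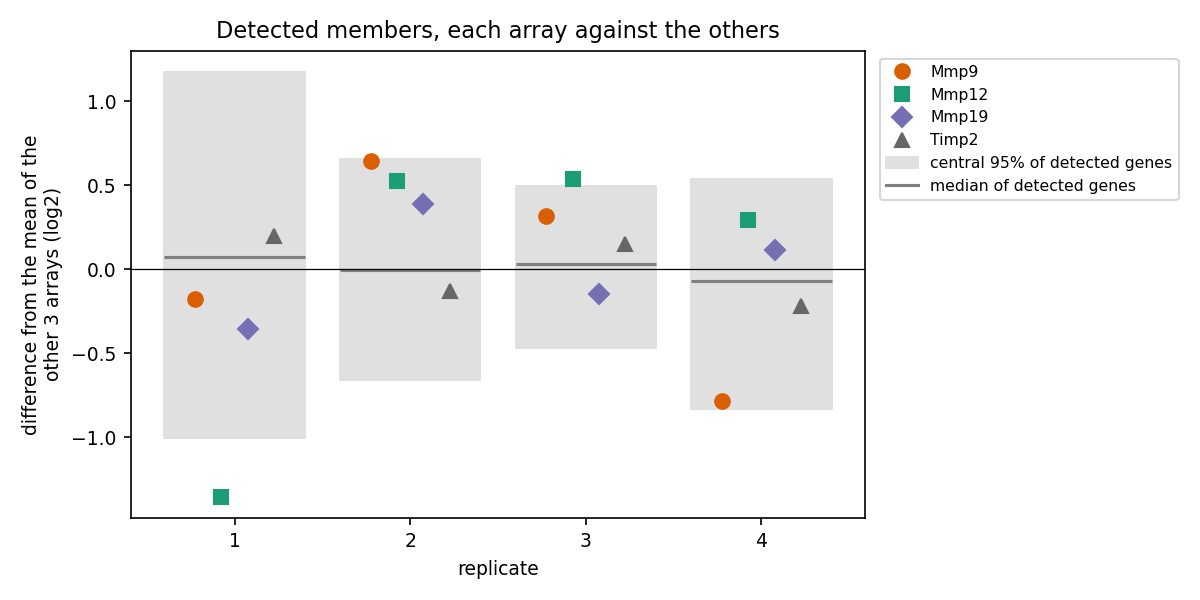
Difference of each array from the mean of the other 3 (y axis, log2) for the 4 detected genes, with the grey box for the central 95% and the grey line for the median of 8772 detected genes. Mmp12 on replicate 1, at -1.35, lies below the box, whose lower edge is -1.01 there, and Mmp12 on replicate 3, at 0.53, lies just above it.

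The median SD of the 4 detected genes was 0.36, and that of all detected genes 0.24. Without replicate 1 the values were 0.17 and 0.15 for the same genes. The median difference of replicate 1 from the other arrays was -0.27 for the 4 genes and 0.071 for all detected genes. The value for the 4 genes ranged from -0.43 without replicate 4 to -0.10 without replicate 2. Mmp9 turned to 0.043 without replicate 2. With all 4 arrays Timp2 was higher on replicate 1, at 0.20, but it was at -0.018 under normexp background correction.

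Mmp2, gelatinase A, lay at the edge of detection. Its probe printed 10 times gave mean signals of 9.97, 20.8, 23.7 and 20.0 on replicates 1 to 4, and 2, 10, 10 and 8 of the 10 spots were well above background. A second probe, printed once, was well above background on replicates 2 and 4 and not on replicates 1 and 3. The probes thus disagreed on replicate 3. Both left replicate 1 below the call, and without that replicate Mmp2 was detected. The 95th percentile of negative controls lay between 3.20 and 3.68. The Mmp2 probe with the smaller p-value exceeded it by limma's moderated test on the 4 arrays (adjusted p = 9.86e-05, Benjamini-Hochberg over 45280 probes, one-sided).

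Mmp14, the membrane-anchored protease that activates pro-Mmp2, was dim and lowest on replicate 1 by both of its probes. The first probe gave mean signals of 3.15, 9.02, 12.7 and 19.2 on replicates 1 to 4, with 0 of 10, 2 of 10, 3 of 9 and 7 of 10 spots well above background. The second gave 4.44, 12.2, 17.1 and 21.6, with 0 of 10, 4 of 10, 7 of 10 and 8 of 8. On replicate 1 the first probe did not rise over the negative controls, at 0.967 times their 95th percentile, and on the others it lay between 2.67 and 5.22 times that value. After scaling by the array's 75th percentile, the second probe lay at -4.35 on replicate 1 and from -3.25 to -2.91 elsewhere. On replicate 1 the software flagged 3 of 10 spots of the first probe and 5 of 10 of the second as positive and significant. It sets insignificant signals close to their error, so part of each mean on replicate 1 is only a bound. Mmp14 passed limma's test over the negative controls (adjusted p = 0.00425, for the probe with the smaller value).

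Timp1, the inhibitor that binds pro-Mmp9, gave mean signals of 9.85, 10.7, 17.2 and 21.8, with 3, 4, 8 and 9 of 10 spots well above background on replicates 1 to 4. Its scaled levels, -3.13, -3.58, -2.94 and -2.98, differed less than those shares did. Timp1 was above the negative controls by limma's test (adjusted p = 0.000246) and passed the looser positive-and-significant flag on every array, as did Mmp2. Of its 10 spots, 1 lay in the margin of the dim area on replicate 4, where its neighbours' median difference was -0.60.

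**Figure D3:**
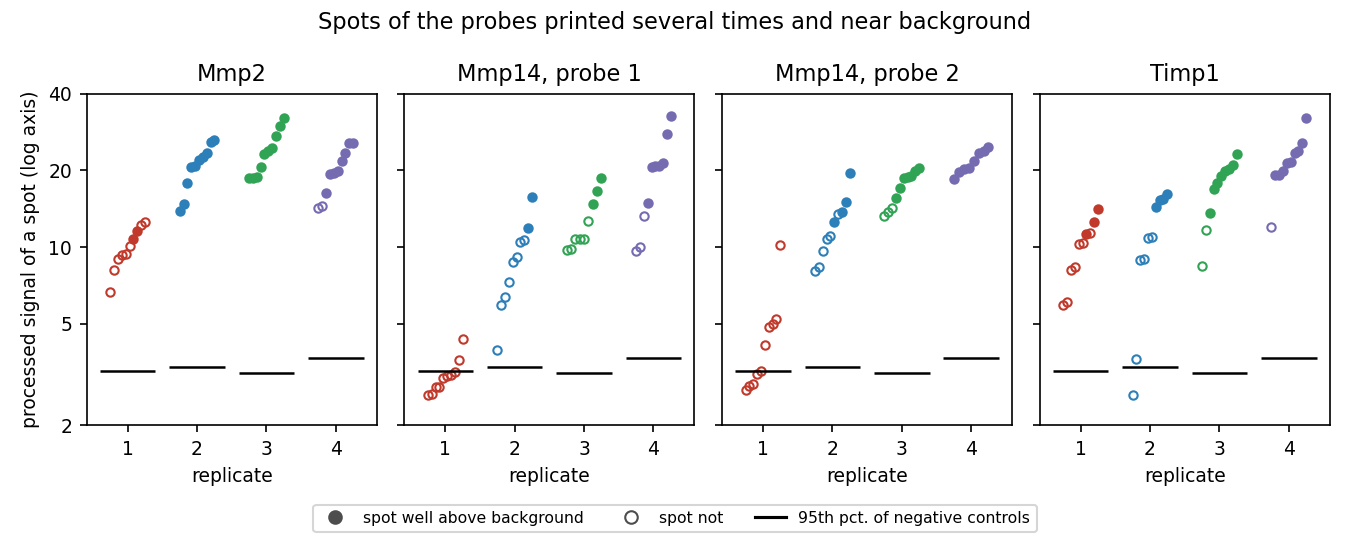
Processed signal of every spot (y axis, log scale, linear scanner units) on replicates 1 to 4 for the probes of Mmp2, Mmp14 and Timp1 that were printed 10 times, with filled points for spots well above background and black bars for the 95th percentile of negative controls. Mean signals are lowest on replicate 1 in all panels, and the Mmp14 spots there overlap the negative controls.

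The number of these 10 genes called on a single array was 4, 5, 7 and 7 on replicates 1 to 4. The share of all named genes called was 55.3%, 57.9%, 60.7% and 62.7% on the same arrays, and the array's 75th percentile over that of the negative controls' 95th ran from 25.6 on replicate 1 to 45.5 on replicate 4. Dimmer arrays went with fewer calls, among these genes and over all genes. The part of array brightness in the calls of Mmp2, Mmp14 and Timp1 was not tested.

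The remaining members gave no spot well above background on any array. Mmp8, the collagenase best known from neutrophils, gave signals of 3.11, 6.32, 2.70 and 3.78 on replicates 1 to 4, and Timp3, an inhibitor bound to the matrix, gave 2.56, 2.25, 7.38 and 9.62. Neither was higher than the negative controls by limma's test (adjusted p = 0.369 and 0.249). The collagenase Mmp13 gave 2.98, 8.88, 10.5 and 9.41 and passed that test (adjusted p = 0.0156), and its spot was flagged positive and significant on replicates 2 to 4. Under the limma call 8 of the 10 members were detected, beside 69.2% of all named genes. Under the positive-and-significant flag 6 were, beside 66.9%, and with detection on at least 3 arrays 5 were, beside 57.3%.

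Mmp12, Mmp13 and Mmp8 belong to a run of 10 neighbouring metalloproteinase genes on chromosome 8, in RefSeq's GRCr8 order Mmp13, Mmp12, Mmp1b, Mmp3, Mmp1, Mmp10, Mmp8, Mmp27, Mmp20 and Mmp7. Of the 9 measured, Mmp12 and Mmp7 were detected, Mmp3 and Mmp1 were well above background on 3 arrays, and Mmp13, Mmp10, Mmp8, Mmp27 and Mmp20 on none. Mmp12 was thus detected by the flag while its direct neighbour Mmp13 was not, though Mmp13 passed limma's test over the negative controls. This run was looked at after the values were seen. The 250 bases before the RefSeq start site (GRCr8) are shown for Mmp12, Mmp13 and Mmp8, to set a detected gene beside undetected ones of the same run, and for Timp2, the detected inhibitor. They lie at chr8:12866402-12866651, chr8:12782579-12782828 and chr8:13008640-13008889 on the plus strand and at chr10:104089215-104089464 on the minus strand. Capitals mark 3 motifs searched on both strands, the AP-1 site TGAGTCA, the TATA box TATAAA and the GC box GGGCGG.
Mmp12: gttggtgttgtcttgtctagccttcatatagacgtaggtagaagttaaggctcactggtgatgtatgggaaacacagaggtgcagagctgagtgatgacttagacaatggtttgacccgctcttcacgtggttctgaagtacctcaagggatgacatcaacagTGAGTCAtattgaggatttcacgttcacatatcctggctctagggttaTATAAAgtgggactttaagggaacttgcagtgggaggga
Mmp13: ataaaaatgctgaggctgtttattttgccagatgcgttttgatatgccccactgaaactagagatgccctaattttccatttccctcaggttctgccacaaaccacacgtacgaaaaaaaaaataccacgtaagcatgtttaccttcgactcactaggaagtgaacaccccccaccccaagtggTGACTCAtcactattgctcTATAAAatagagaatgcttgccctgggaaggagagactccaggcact
Mmp8: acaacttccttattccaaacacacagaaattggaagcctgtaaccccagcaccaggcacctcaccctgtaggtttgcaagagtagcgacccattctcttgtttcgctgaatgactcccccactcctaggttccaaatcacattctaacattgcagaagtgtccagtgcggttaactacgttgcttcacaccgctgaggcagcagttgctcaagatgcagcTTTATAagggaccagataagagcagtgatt
Timp2: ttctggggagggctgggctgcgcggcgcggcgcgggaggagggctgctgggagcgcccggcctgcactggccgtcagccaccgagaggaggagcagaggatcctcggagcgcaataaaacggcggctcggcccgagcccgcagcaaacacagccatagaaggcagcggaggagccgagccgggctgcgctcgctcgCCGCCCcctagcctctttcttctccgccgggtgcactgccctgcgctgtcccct

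The promoter windows of Mmp12 and Mmp13 held the same motifs, although the genes differed in detection by the flag. Under the limma call both genes were detected. An AP-1 match, a site for Fos and Jun dimers, began 87 bases before the start in Mmp12 and 66 bases before it in Mmp13, and 4.05% of all 33469 promoter windows of that length held one. A TATA box match began 39 bases before the start in Mmp12, 47 in Mmp13 and, on the opposite strand, 30 in Mmp8, and 12.9% of all windows held one. No AP-1 letters were in the Mmp8 window. The windows of the inhibitors held neither of these motifs but GC boxes, found in 30.5% of all windows, with 1 in Timp1, 1 in Timp2 and 3 in Timp3. Timp2 and Timp3 were rich in G and C, at 72.0% and 69.6% against a median of 51.2%, and only Timp2 of these was detected. Matches are letters in a window and not measured binding. Mmp2, Mmp9, Mmp14 and Mmp19 had no entry.

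Beyond the 10 genes, 18 of 52 measured genes of the pathway were detected, beside the same 53.1% of all named genes. Among 14 other metalloproteinases 3 were detected: the matrilysin Mmp7 at -1.78 ± 0.37, the membrane-type enzyme Mmp15 at 7.77 ± 0.76 and the membrane-type enzyme Mmp24 at 0.37 ± 0.14 (SD, n = 4 each). Mmp15 read 7.69, 6.75, 8.09 and 8.53 on replicates 1 to 4, so its replicates spread wider than those of Mmp12. Replicate 1 was lowest for 0 of these 3 genes. Mmp1 and Mmp3 were well above background on 3 arrays each. Of 5 other protease inhibitors none was detected by the flags on all arrays. The positive-and-significant flag found 0 of them as well. The general protease inhibitor A2m passed limma's test over the negative controls, and Timp4 did not.

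Genes that activate the enzymes, hold them at the cell surface or clear them were detected in part. Of 8 activation genes 4 were detected: the proprotein convertase Furin, which cuts the propeptide of Mmp14, at 2.57 ± 0.18, the urokinase receptor Plaur at 0.68 ± 0.09, plasminogen (Plg) at 1.55 ± 0.30 and the membrane protease St14 at 3.31 ± 0.29. The Plaur level averaged 2 probes with SDs of 0.20 and 0.13, replicate 1 being lowest by the former and highest by the latter. The plasminogen activators Plau and Plat were well above background on no array. Of 8 docking, induction and clearance genes 5 were detected. Cd44, a hyaluronan receptor that can hold Mmp9 at the cell surface, lay at 4.26 ± 0.10, the inducer Bsg at 5.18 ± 0.07, the clearance receptor Lrp1 at 1.03 ± 0.17 and the integrin chain Itgb3 at -0.72 ± 0.14. The Itgb3 level averaged 2 probes that read apart, at -1.75 ± 0.34 and 0.32 ± 0.12. The Cd44 level likewise averaged 2 probes, at 3.07 ± 0.15 and 5.45 ± 0.13. The matrix proteins Thbs1 and Thbs2 were well above background on no array.

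Lcn2, a lipocalin that can form a complex with Mmp9, had the widest replicate spread of these 8 genes. Replicates 1 to 4 gave 2.49, 4.07, 4.44 and 3.47 (3.62 ± 0.85, SD, n = 4). Replicate 1 lay below replicate 4 and both below replicates 2 and 3. Mmp12 had the same order but not the same spread. Without replicate 1 the SD was 0.49 for Lcn2 and 0.10 for Mmp12.

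Sheddases, proteases that release proteins from the cell surface, were listed together with Adamts proteases. Timp3 can inhibit both kinds in part. Of this list 5 of 8 genes were detected. Adam17, the enzyme that releases tumour necrosis factor, lay at 1.77 ± 0.33, Adam10 at -0.89 ± 0.07, Adam9 at -2.48 ± 0.21, Adam15 at 3.59 ± 0.14 and Adamts4, an aggrecan-cutting enzyme, at -1.20 ± 0.43. Adam19 and Adamts1 were well above background on 3 arrays. Matrix substrates were detected in 1 of 9 cases, the collagen chain Col1a2 at -1.96 ± 0.25. Elastin (Eln) was well above background on 2 arrays and fibronectin (Fn1) on 3, and both passed limma's test over the negative controls.

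**Figure D4:**
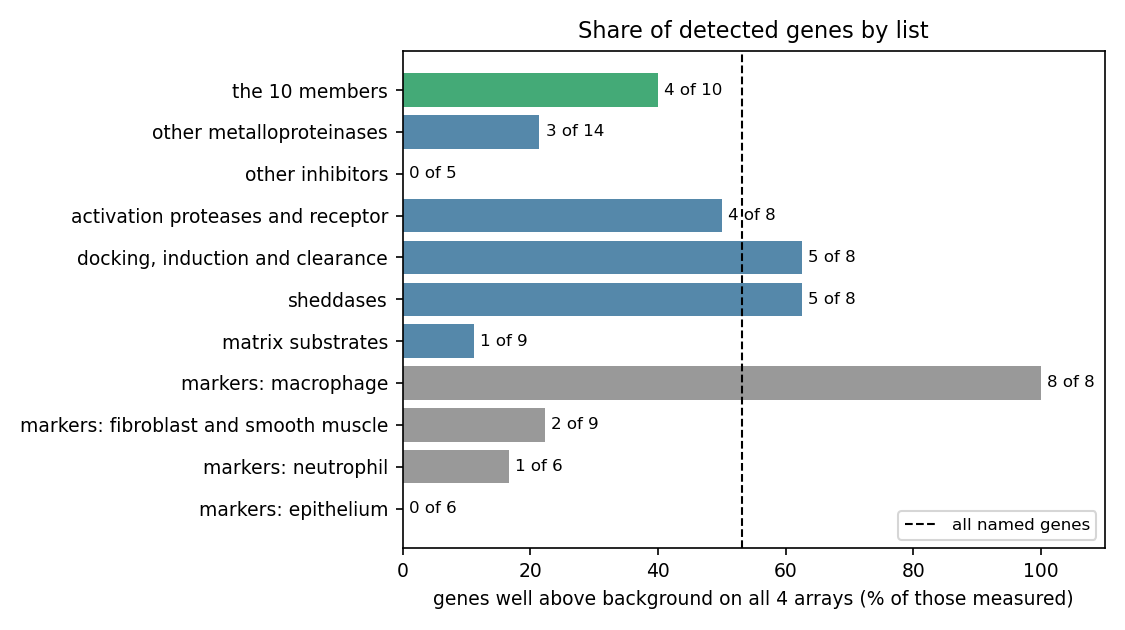
Share of measured genes well above background on all 4 arrays (x axis, percent) for the 10 members, the other lists of the pathway and the cell type markers, with the counts beside each bar and a dashed line at 53.1% for all named genes. The 10 members, at 4 of 10, lie left of the line, as do the other metalloproteinases, inhibitors, activation genes (4 of 8) and matrix substrates, and the markers of fibroblasts, neutrophils and epithelium.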

How the data were processed

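Total RNA (100 ng, integrity number above 7.5 per the labels) of 4 replicates was hybridised to one-colour Agilent arrays. The authors deposited linear spot intensities (one intensity per spot), made with Agilent Feature Extraction 11.0.1.1 per the submitters' processing notes and not scaled between arrays, with flags per spot, per the file headers. All 4 arrays share 1 slide. Of 62976 spots per array, 4259 controls and between 440 and 1206 outlier spots were left out, no spot was saturated, and spots of a probe were averaged as log2 signals. This left 45280 probes, of which 20990 were named through unversioned RefSeq accessions (GRCr8, names only). The array's annotation is on build rn4, so no probe coordinates are given, and probe sequences were not used here. A gene's level is the mean of its detected probes. The number of arrays limits the precision.

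The limma test asked whether log2 signal exceeded the array's 95th percentile of 308 negative control spots. A gene took the smallest adjusted p-value of its probes. The limma test and the deviations were tried on simulated data, and the outcome is not given here. Members and lists were chosen with earlier results of these data known. Named were all members, up to 6 detected and the first 2 undetected genes of each list, and the 3 genes most like the member with the largest SD, and any other gene after its values were seen. The settings varied were the replicates (each left out in turn), 3 looser calls, other rules for probes, normexp (offset 50, on median signals), 3 other scalings, no filter on dim probes, and leaving out the dim area of replicate 4 with a margin of 10 rows and columns. The neighbours of a spot (within 5 rows and 3 columns) were added after seeing the data. Tools were R 4.3.3, limma 3.58.1, data.table (version 1.17.8), pandas 2.3.3 and matplotlib 3.10.9.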

Additional observations from a re-analysis of the deposited data

Results flagged for a closer look

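Members, listed pathway genes and cell type markers that were well above background on at least 1 array numbered 47. Tmem120b, Sgk1 and Ifrd1, picked for their likeness to Mmp12, were not among them. Of the 47 genes, 3 had an array that stood apart from the others by Dixon's ratio. This is the gap to the nearest value over the whole range, and it had to lie above its 95% critical value. Chance flags about 1 in 20 such groups, and 8.41% of all detected genes passed. The ratio was 0.873 for Mmp12, low on replicate 1. It was 0.904 for Adam15, with 3.80 on replicate 1 and from 3.50 to 3.53 elsewhere. Of the 2 Adam15 probes 1 showed this, at 4.85 against 4.23 to 4.35, while the other read between 2.67 and 2.78 on all 4 arrays. For Mmp28, chosen after its values were seen, the ratio was 0.941, with -1.39 on replicate 1, the single array on which its 1 spot was well above background, and between -5.64 and -5.39 on the others. Those 3 values were not well above background and are bounds, so this ratio cannot be set beside the share of detected genes.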

How the results depend on the processing

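Leaving out each replicate in turn gave 4 to 5 detected members and 18 to 22 detected genes of the rest of the pathway. The higher counts came without replicate 1, when Mmp2 was added. The share of all named genes called with a replicate left out is not given here. Detection on all 4 arrays called 53.1% of named genes, and detection on at least 3 arrays 57.3%. With each replicate left out, the median SD of the detected members lay between 0.20 and 0.41, lowest without replicate 1. With no filter on dim probes the median was 0.53, but it then covered all 10 members, the undetected ones included. The limma call gave 8 members and 28 other genes of the pathway, beside 69.2% of all named genes. The median difference of replicate 1 from the others kept its sign under every alternative run, between -0.43 (without replicate 4) and -0.10 (without replicate 2). For Mmp12 it stayed below 0 in all 10 values, from -1.44 to -0.82, the last under normexp. Mmp9 turned to 0.043 without replicate 2, and Timp2 to -0.018 under normexp. The median shift of all detected genes' levels was -3.09 with the percentile taken over detected probes, -0.92 with their median and -0.27 under normexp, and quantile normalization moved them by less than 0.1. Without the dim area and its margin Mmp9 had no value, and 3 members were detected. No paired analysis was possible because there is 1 group. Replicate 1 had the lowest 75th percentile over negative controls, 25.6 times, and the fewest calls.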
